A study of Mus musculus with 4 samples.

Results

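Interferon-stimulated genes were examined in single cells from the frontal cortex and midbrain of mice carrying a human α-synuclein A53T transgene. The set was a list of 33 genes chosen by name, all of which were present among the 19602 features of the frontal cortex table and the 19956 features of the midbrain table. Each gene was followed through 6 deposited cell type labels: MG, EC, AC, MAC, PC and SMC, which were highest in markers of microglia, endothelial cells, astrocytes, macrophages, pericytes and smooth muscle cells. The transgenic groups were Hua-Syn(A53T) mice and the wildtype groups their C57BL/6 littermates, all aged 6 to 9 months, with no treatment named for either. Cells had been dissociated for glial and vascular types and sequenced with 10x Genomics 3' chemistry, as 1 library for each region and genotype. The design text gives 3 mice per group, the labelled mouse number is 3 in frontal cortex samples and 0 in midbrain samples, and no cell is tied to a mouse. The labels used here do not name the promoter that drives the transgene. Each group was therefore 1 sample, no test across animals was possible, and every interval below covers counting error only.

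Interferons are secreted proteins that bind paired receptors on the cell surface and signal through Janus kinases to a complex of transcription factors that includes STAT2 and IRF9. The complex enters the nucleus and binds interferon-stimulated response elements in front of its target genes, and gamma-activated sequences are a further kind of element in such promoters. The target genes encode RNA and DNA sensors, proteins that block viral entry, translation or release, and the factors that feed back on the pathway. In brain, microglia and endothelial cells are well known to express such genes.

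Promoter stretches are shown first because they are the part of these genes on which interferon signalling acts. RefSeq (GRCm38.p6) gave windows from 250 bases before to 50 bases after the start site for 27 of the 33 genes, 33 windows in all, and none for Rtp4, Usp18, Zbp1, Ifi27l2a, Parp9 and Parp14. The core of the response element was searched as TTTC, any 2 bases and TTTC again, or GAAA, any 2 bases and GAAA on the other strand, and matches may overlap. It was found in 16 of the 33 windows (48.5%) and in 3.44% of all 32851 windows of the same length. The gamma-activated sequence, TTC, any 3 bases and GAA, which reads the same on both strands, had a match in 8 of the 33 windows (24.2%) and in 8.30% of all windows. Not every gene called higher in microglia or endothelial cells had a match before its start site. Among these genes, Oasl2, Lgals3bp and Ifi44 had no match, and Ifitm3 had none lying wholly before the start site. Rtp4 and Ifi27l2a had no window. Below are 90 bases lying before the start site of 5 such called genes, chosen because they had a match there. They run 5′ to 3′ on the gene's strand, with response element matches in capitals.
Isg15: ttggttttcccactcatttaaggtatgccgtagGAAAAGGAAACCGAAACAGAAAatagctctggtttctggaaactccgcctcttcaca
Ifit3: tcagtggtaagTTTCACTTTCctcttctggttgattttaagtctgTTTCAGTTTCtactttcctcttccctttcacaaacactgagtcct
Ifit3b: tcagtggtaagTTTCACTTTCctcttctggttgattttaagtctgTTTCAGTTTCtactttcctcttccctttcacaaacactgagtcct
Oas1a: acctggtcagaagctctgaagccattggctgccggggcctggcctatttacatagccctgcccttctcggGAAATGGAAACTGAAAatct
Bst2: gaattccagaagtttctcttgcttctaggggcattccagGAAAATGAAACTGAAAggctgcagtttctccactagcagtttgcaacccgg
The stretches lie at chr4:156200840-156200929 (Isg15, minus strand), chr19:34583362-34583451 (Ifit3, plus), chr19:34607758-34607847 (Ifit3b, plus), chr5:120907526-120907615 (Oas1a, minus) and chr8:71537552-71537641 (Bst2, minus). The Ifit3 and Ifit3b stretches were identical over all 90 bases. These genes are near copies, so reads may have been split between them by the authors' counting, and the same uncertainty holds for Oas1a, Trim30a, Ifitm3, Gbp2, Gbp3 and Gbp7, which have close relatives. Parp9 and Dtx3l overlap at their starts on chromosome 16 (35938470 to 35972605 on the plus strand and 35926511 to 35939151 on the minus strand in GENCODE).

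The libraries held 3775 to 7635 cells and 30712684 to 56588233 UMIs, with 3 cell barcodes shared between genotypes in frontal cortex and 4 in midbrain. No separate feature carried the human transgene. Prnp, whose promoter drives several α-synuclein transgenes, stood at 773 UMIs per 1000000 UMIs (CPM) in transgenic and 341 CPM in wildtype frontal cortex, and at 948 and 572 CPM in midbrain. Markers of each of the 6 types were highest under their own label, except Slc4a4 for frontal cortex AC and Cspg4 for midbrain PC. Haemoglobin and other erythroid transcripts were higher in transgenic cells of every type, for example 709 against 44.1 CPM in frontal cortex MG, and their part in the results was not tested.

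In wildtype brain the genes were mostly endothelial and macrophage transcripts. Of the 6 types, EC had the highest level for 23 of the 33 genes in frontal cortex and 25 in midbrain, and MAC for 9 and 8. The interval lay apart from that of the second type for 17 and 20 of the EC genes and for 6 and 5 of the MAC genes. Only Irf1 in frontal cortex was highest in MG, at 80.5 CPM against 78.5 CPM in MAC, a difference within counting error. Summed over all 33 genes, wildtype EC held 3358 CPM in frontal cortex and 3444 CPM in midbrain, MAC 3257 and 3162 CPM, MG 918 and 983 CPM, and AC 328 and 307 CPM. Pericytes held 1230 and 1222 CPM and smooth muscle cells 786 and 911 CPM. The regions differed most in SMC, with a wildtype log2 ratio of frontal cortex over midbrain of -0.21 (95% interval -0.29 to -0.14).

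Transgenic frontal cortex carried higher summed levels in MG, EC, AC, MAC and PC. In MG the sum was 1345 CPM in the transgenic library and 918 CPM in the wildtype library, a log2 ratio of 0.55 (0.52 to 0.58). It was 0.38 without Ifitm3, Bst2, Lgals3bp and Ifi27l2a, 4 members set aside because their counts can be high in some types. In wildtype frontal cortex MG they were not the highest 4. Lgals3bp stood at 75.1 CPM there, below Trim30a (84.5 CPM) and Irf1 (80.5 CPM), which were kept. All 4 were among the 7 genes called higher in these MG by the rule given below. EC had 4299 against 3358 CPM (0.36, 0.34 to 0.37), AC 403 against 328 CPM (0.29, 0.22 to 0.37) and PC 1729 against 1230 CPM (0.49, 0.37 to 0.61). MAC had 4287 against 3257 CPM (0.40, 0.32 to 0.47), but without those 4 genes the MAC ratio was -0.44 (-0.58 to -0.30), that is, lower in the transgenic library. In SMC the levels were 816 and 786 CPM, with an interval that held 0.

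Midbrain differed in which types carried the higher level. EC had 4065 CPM in transgenic and 3444 CPM in wildtype midbrain (log2 ratio 0.24, 0.22 to 0.26), MAC 4293 and 3162 CPM (0.44, 0.37 to 0.52), and PC 1380 and 1222 CPM (0.18, 0.06 to 0.29). Without the same 4 genes these ratios were 0.15 in EC, 0.20 in MAC and 0.03 in PC. MG lay the other way, with 915 CPM in transgenic and 983 CPM in wildtype midbrain (-0.10, -0.15 to -0.05). In midbrain MG with no endothelial marker UMI the ratio was -0.03 and its interval held 0 (-0.14 to 0.08), and in cluster 15 it was 0.18 (0.06 to 0.30). Endothelial markers stood at 189 CPM in transgenic and 459 CPM in wildtype midbrain MG, with 0 of 10 higher, and erythroid transcripts at 1700 and 47.4 CPM. SMC were also lower, at 825 against 911 CPM (-0.14, -0.22 to -0.06), although weighting the 2 SMC clusters alike gave 0.08. AC did not differ beyond counting error, at 311 and 307 CPM (0.02, -0.04 to 0.08). Weighting the AC clusters alike gave 0.47, and clusters 3 (0.77), 10 (0.45) and 22 (1.61) were higher and clusters 1 (-0.11), 4 (-0.63) and 5 (-0.49) lower in the transgenic library. A single wildtype midbrain astrocyte held 428 of the 5059 UMIs of these genes, and without the top cell of each library the ratio was 0.09.

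**Figure D1:**
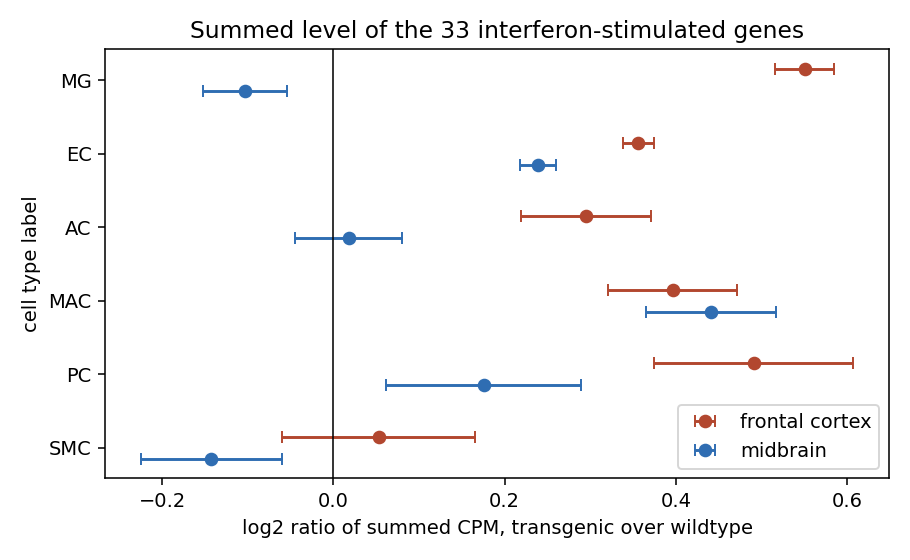
Log2 ratio (x axis) of the summed CPM of the 33 genes in transgenic over wildtype cells for 6 cell type labels (y axis) in each region, with exact 95% counting intervals as bars. MG stand at 0.55 in frontal cortex and -0.10 in midbrain, while EC and MAC lie above 0 in both regions.

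How much each type added to the library as a whole depended on its level and on its share of the UMIs. The frontal cortex libraries differed by 124 CPM in all, which splits into 506 CPM from higher levels within types and -382 CPM from the change in the mix of cells. The level part came to 317 CPM in EC and 130 CPM in MG, against 14.5 CPM in AC, 19.6 CPM in MAC, 10.2 CPM in PC and 1.42 CPM in SMC. EC made up 27.1% of transgenic and 40.2% of wildtype frontal cortex UMIs, and the part from their smaller share was -502 CPM. In midbrain the whole difference was 9.79 CPM, with 188 CPM from levels, of which EC gave 147 CPM and MG -11.2 CPM. Endothelial cells thus carried the largest level part of the 6 types in both regions, with microglia second in frontal cortex only.

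A single gene was called when its log2 ratio reached 0.58 in either direction (1.5 times), provided that the mean of both libraries was at least 10 CPM and they held at least 20 UMIs. Frontal cortex MG passed this filter for 21 of the 33 genes and 7 were called higher, where 1.44% of 8444 genes tested were called higher. None was called lower, against 1.22% of all genes. Of the 7, Rtp4 and Ifit3 were under 10 CPM in wildtype cells and passed the filter only through the transgenic library, which leaves 5 called genes at 10 CPM or more in both. The same held, in the library where the gene was high, for the calls of Oas1a in frontal cortex EC, Ifit3 in frontal cortex PC, Irf9 and Ifih1 in frontal cortex SMC and Rsad2 in midbrain MAC. Of the 21, 18 lay above 0, where 40.8% of all genes did, and their median log2 ratio was 0.48 beside -0.04 for all genes. In 16 of the 21 the interval lay above 0 and in none below. The same count was not made over all genes, so it has no background to be read against.

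The gene with the largest ratio in these microglia was Ifi27l2a, an interferon-inducible gene of the ISG12 family. It stood at 60.9 CPM in the transgenic and 15.3 CPM in the wildtype library (log2 ratio 1.996, 1.77 to 2.23), with a UMI in 202 of 1445 and 102 of 1912 cells. In midbrain MG the order was turned round, with 29.8 CPM in transgenic and 38.0 CPM in wildtype cells.

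Rtp4, a regulator of antiviral and opioid receptor responses, had 23.5 CPM in transgenic and 9.14 CPM in wildtype frontal cortex microglia (1.36, 1.05 to 1.68). The IFIT proteins bind foreign RNA, and Ifit3 had 21.0 against 8.93 CPM there (1.23, 0.91 to 1.56). Ifit3 was found in 82 transgenic and 60 wildtype cells, and in the few microglia holding fewer than 4 UMIs of other types' markers (236 and 433 cells) its ratio was -0.11. Rtp4 remained 1.5 times higher in that subset, at 0.72.

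Isg15, a ubiquitin-like protein that is joined to other proteins, stood at 39.6 and 20.4 CPM in frontal cortex MG (0.96, 0.74 to 1.18). One transgenic cell held 57 of its 416 UMIs, and without the top cell of each library the ratio was 0.78, while in the subset with few UMIs of other types' markers it was 0.39, under the threshold. Ifitm3, which hinders the fusion of viral with cell membranes, had 90.4 against 45.4 CPM (0.99, 0.85 to 1.14). Weighting the 4 microglial clusters alike brought Ifitm3 to 0.53. Lgals3bp, a secreted glycoprotein, had 139 against 75.1 CPM (0.89, 0.77 to 1.003). Bst2, which holds budding virions at the cell surface, had 229 against 147 CPM (0.64), and 0.57 with the mean of per-cell CPM, just under the threshold. The shared direction of these 7 genes was set by the rule that called them and is no further result.

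The other 14 genes above the filter differed less in frontal cortex MG. Among the transcription factors, Irf9 had 54.6 against 38.6 CPM (0.50) and Stat2 27.1 against 20.9 CPM (0.37), while Irf1 had 77.5 against 80.5 CPM, within counting error. Sp100, a nuclear body protein, was at 27.9 against 19.4 CPM (0.52). Parp14, a mono-ADP-ribosyltransferase, was at 73.3 against 50.7 CPM (0.53), whereas Parp9 and Dtx3l, which form a complex, stood at 0.10 and -0.01. The double-stranded RNA sensor Ifih1 had a ratio of -0.12 and the RNA-activated kinase Eif2ak2 0.39. Guanylate-binding proteins are GTPases that coat pathogen vacuoles, and of these Gbp3 stood at 0.44 and Gbp7 at 0.15. Xaf1 (0.48), Trim30a (0.21) and Ifi35 (0.14) completed the list.

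The remaining 12 members lay below the filter in these microglia, and 8 of the 12 had an interval above 0. How many of all genes below the filter had such an interval was not counted. Oas1a, which makes the oligoadenylates that activate an RNase, had 58 UMIs in transgenic and 20 in wildtype cells (5.52 and 1.41 CPM, 1.97). The Z-nucleic acid sensor Zbp1 had 52 and 18 UMIs (1.97), Oasl2 152 and 62 (1.73), and Irf7, the factor that amplifies interferon production, 125 and 52 (1.70). Usp18, the protease that removes Isg15, had 105 and 52 UMIs (1.45). Ifit1 (0.84), Ifit2 (1.02) and Ifit3b (0.93) made up the 8, while Rsad2, Cmpk2, Ifi44 and Gbp2 did not differ beyond counting error. Being low in both libraries, these genes were not called under the rule.

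**Figure D2:**
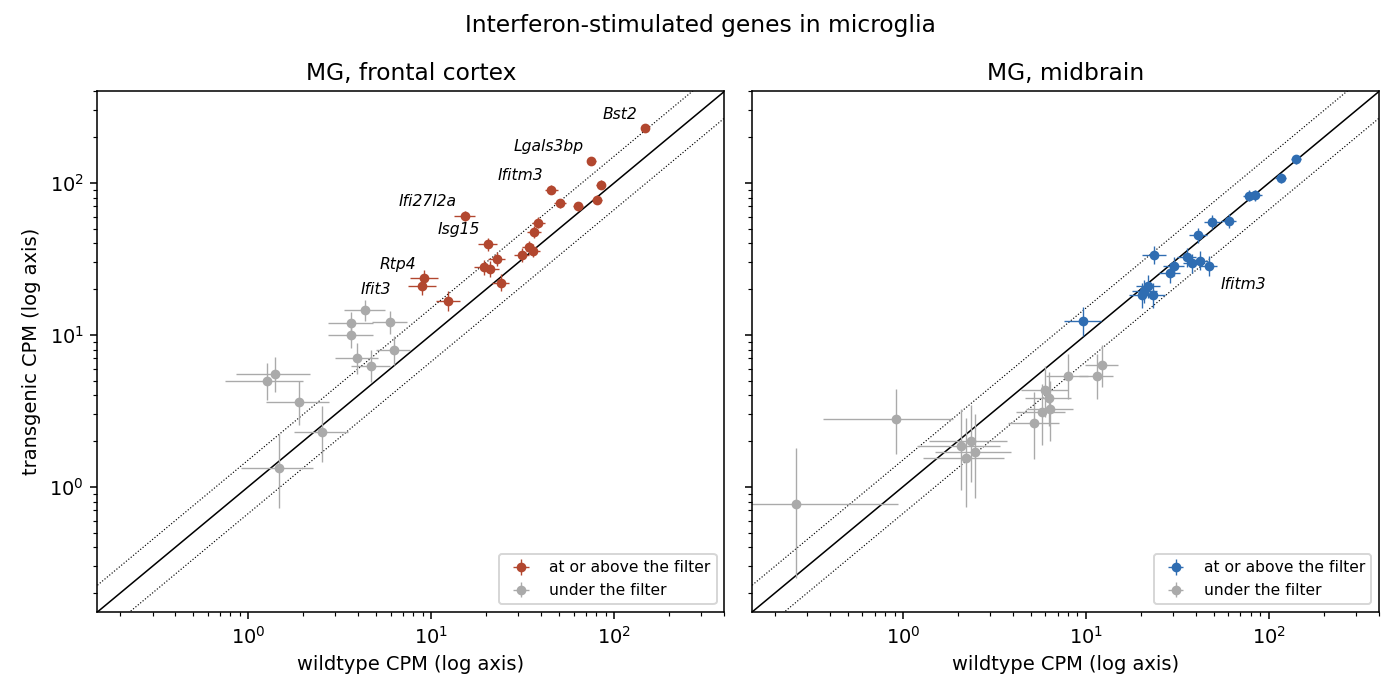
CPM of each of the 33 genes in microglia, wildtype (x axis) against transgenic (y axis), both log axes, with exact 95% Poisson intervals; the solid line is equality and the dotted lines 1.5 times either way. In frontal cortex 7 named genes lie above the upper dotted line, and in midbrain only Ifitm3 of those at or above the filter lies outside the lines.

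Midbrain MG showed no such pattern. Of the 19 genes above the filter 0 were called higher, where 1.21% of 8429 genes were, and 1 was called lower, where 3.19% were. That gene was Ifitm3, at 28.5 CPM in transgenic and 46.9 CPM in wildtype cells (-0.72, -0.98 to -0.46), which the mean of per-cell CPM brought to -0.31. Only 6 of the 19 lay above 0, against 45.2% of all genes, and the median was -0.10 beside -0.02. Dtx3l, at 33.8 against 23.6 CPM (0.52, 0.23 to 0.81), was the sole gene above the filter with an interval above 0. Below the filter, Ifit3 had 35 UMIs in transgenic and 88 in wildtype cells (-1.09) and Rtp4 41 and 94 (-0.96). The difference between the regions' ratios was not tested.

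Which cells held the transcripts was read after thinning each cell to 3000 UMIs. Cells with fewer than 3000 UMIs were left out, and shares after thinning are of the cells kept. Among frontal cortex MG, 193 of 1445 transgenic and 107 of 1912 wildtype cells were left out. In the cells kept, 17 members listed for low levels at rest (low-baseline genes) were counted, among them Isg15, the IFIT genes, Irf7, Rtp4 and Ifi27l2a. The name does not hold in every type. In wildtype frontal cortex, Isg15 stood at 128 CPM in EC and Ifi27l2a at 346 CPM in MAC. Ifi27l2a is also 1 of the 4 members set aside above. Among frontal cortex MG, 31.1% of 1252 transgenic and 23.9% of 1805 wildtype cells held a UMI of at least 1 of the 17. At least 4 of them were found in 32 transgenic cells (2.56%, exact binomial interval 1.75% to 3.59%) and 15 wildtype cells (0.83%, 0.47% to 1.37%). The log2 ratio of these shares was 1.62 (0.69 to 2.61), and without thinning the counts were 90 of 1445 and 51 of 1912 cells. In frontal cortex neurons labelled mNeur no cell reached 4 genes, in 68 and 58 cells, which at 3 cells allows shares of up to 4.41% and 5.17% (exact binomial upper limits 5.28% and 6.16%). Among cells labelled imNeur, 4 of 69 transgenic (5.80%) and 0 of 90 wildtype cells reached 4 genes. As for a UMI of at least 1 gene, mNeur had one in 7.35% (transgenic) and 6.90% (wildtype) of their cells. For imNeur these shares were 30.4% and 7.78%. The mNeur median depths of 8842 and 8761 UMIs exceeded those of MG (7404 and 7373). In imNeur the depths were 6926.5 and 7697 UMIs. The cutoff marks a range rather than a cell type, with 9 transgenic and 5 wildtype MG exactly at 4 genes and 23 and 13 just under it, at 3.

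The difference was not held by these cells alone. In the remaining frontal cortex MG, the 17 genes together stood at 163 CPM in transgenic and 105 CPM in wildtype cells (0.64, 0.47 to 0.81). Cells with at least 4 genes held 356 of the 953 UMIs in transgenic and 146 of the 708 UMIs in wildtype cells. They were spread over all 4 microglial clusters, and in each cluster the share was higher in the transgenic library, on few cells. It was 3.23% (13 cells) against 0.78% (6 cells) in cluster 2 and 1.74% (9) against 0.61% (3) in cluster 3. In cluster 7 it was 1.54% (4) against 0.22% (1), and in cluster 8 8.33% (6 of 72) against 5.56% (5 of 90). No interval was computed for these shares, so they were not set against counting error. The summed level of all 33 genes was also higher in each cluster, with log2 ratios of 0.71, 0.50, 0.41 and 0.41.

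Endothelial RNA is rich in these genes, so the endothelial markers were read beside them. The 10 markers together stood at 564 CPM in transgenic and 959 CPM in wildtype frontal cortex MG, and 0 of the 10 were higher in the transgenic library. None was at 0. Among the cells with at least 4 genes the markers were more abundant, at 1240 CPM in transgenic and 4022 CPM in wildtype cells, than in the remaining cells (428 and 655 CPM). In MG with no endothelial marker UMI after thinning, a choice made after seeing the data, the 17 genes stood at 220 CPM in 623 transgenic and 137 CPM in 740 wildtype cells (0.68, 0.47 to 0.90). In that subset 11 transgenic and 8 wildtype cells held at least 4 genes, and the ratio of shares was 0.71 with an interval that held 0 (-0.74 to 2.23). Astrocyte markers were higher in transgenic frontal cortex MG, at 644 against 335 CPM and in 10 of 10 genes. Their part in the result was not tested.

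Endothelial cells showed a smaller and broader difference. In frontal cortex EC 32 of the 33 genes passed the filter and 31 of them lay above 0, where 53.6% of 8533 genes did. The median was 0.32 beside 0.01 for all genes. An interval above 0 was found for 27 of the 32, a count that was not made over all genes. Yet 4 were called higher (1.37% of all genes) and 0 lower (0.949%). Oas1a was at 16.0 CPM in transgenic and 9.56 CPM in wildtype cells (0.74, 0.42 to 1.07), and Oasl2, of the same family, at 117 and 74.6 CPM (0.65, 0.54 to 0.77). Ifit3b stood at 32.5 and 20.8 CPM (0.64, 0.42 to 0.86), and Ifi27l2a at 26.8 and 17.6 CPM (0.61, 0.37 to 0.85). A single transgenic cell held 43 of the 270 Ifit3b UMIs, and without the top cells its ratio was 0.41. Ifi27l2a stood at 0.56 with TMM scaling.

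Most of the endothelial genes differed by less than 1.5 times. Irf7 had 76.0 against 50.9 CPM (0.58, just under the threshold before rounding), Ifit3 81.5 against 55.9 CPM (0.55), Isg15 181 against 128 CPM (0.50) and Irf1 83.6 against 59.0 CPM (0.50). The level of Ifitm3 in EC was 1388 against 1002 CPM (0.47, 0.44 to 0.50), found in 96.4% and 96.0% of cells. Usp18 (0.02), Ifih1 (-0.01), Trim30a (0.02), Dtx3l (0.06) and Parp14 (0.10) did not differ beyond counting error. By role, the membrane and nucleotide restriction factors stood at 0.45, the ISG15 system at 0.40 and the IFIT family at 0.39, whereas the guanylate-binding proteins stood at 0.17 and the PARP and DTX3L group at 0.14. One transgenic cell held 790 of the 35753 UMIs, and without the top cells the summed ratio was 0.33. Erythroid transcripts (533 against 24.3 CPM) and astrocyte markers (387 against 189 CPM) were higher in transgenic frontal cortex EC as well, and their part was not tested.

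In midbrain EC, 2 of 32 genes were called higher (1.12% of 8576 genes) and 0 lower (1.06%), with 26 of 32 above 0 beside 49.8%. The median was 0.16 beside -0.00 for all genes. Ifi44 had 46.2 CPM in transgenic and 29.6 CPM in wildtype cells (0.64, 0.43 to 0.85), and Oas1a 16.1 and 10.6 CPM (0.61, 0.25 to 0.97). With the mean of per-cell CPM both lay under the threshold, at 0.47 and 0.57. Isg15 had 195 against 141 CPM (0.46), Irf1 85.9 against 61.8 CPM (0.48) and Ifitm3 1361 against 1034 CPM (0.40), while the IFIT family as a whole stood at 0.03 (-0.06 to 0.12). Oas1a was the only gene called in EC of both regions.

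After thinning, 26.7% of 784 transgenic and 19.8% of 2152 wildtype frontal cortex EC held at least 4 of the 17 low-baseline genes (log2 ratio 0.43, 0.18 to 0.67). In midbrain the shares were 24.6% of 680 and 19.8% of 1625 cells (0.31, 0.04 to 0.59). The midbrain interval held 0 at a cutoff of 6 genes (0.10, -0.35 to 0.54) and at 1500 UMIs (0.18, -0.27 to 0.62), and at both together the ratio was -0.15. In frontal cortex the interval held 0 at 1500 UMIs (0.34, -0.07 to 0.74). The summed level of the 33 genes was higher in the transgenic library in each of the 4 endothelial clusters of frontal cortex (0.23 to 0.50) and of midbrain (0.14 to 0.33). Midbrain MG with at least 4 genes numbered 5 of 674 transgenic and 14 of 968 wildtype cells, shares that did not differ beyond counting error.

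**Figure D3:**
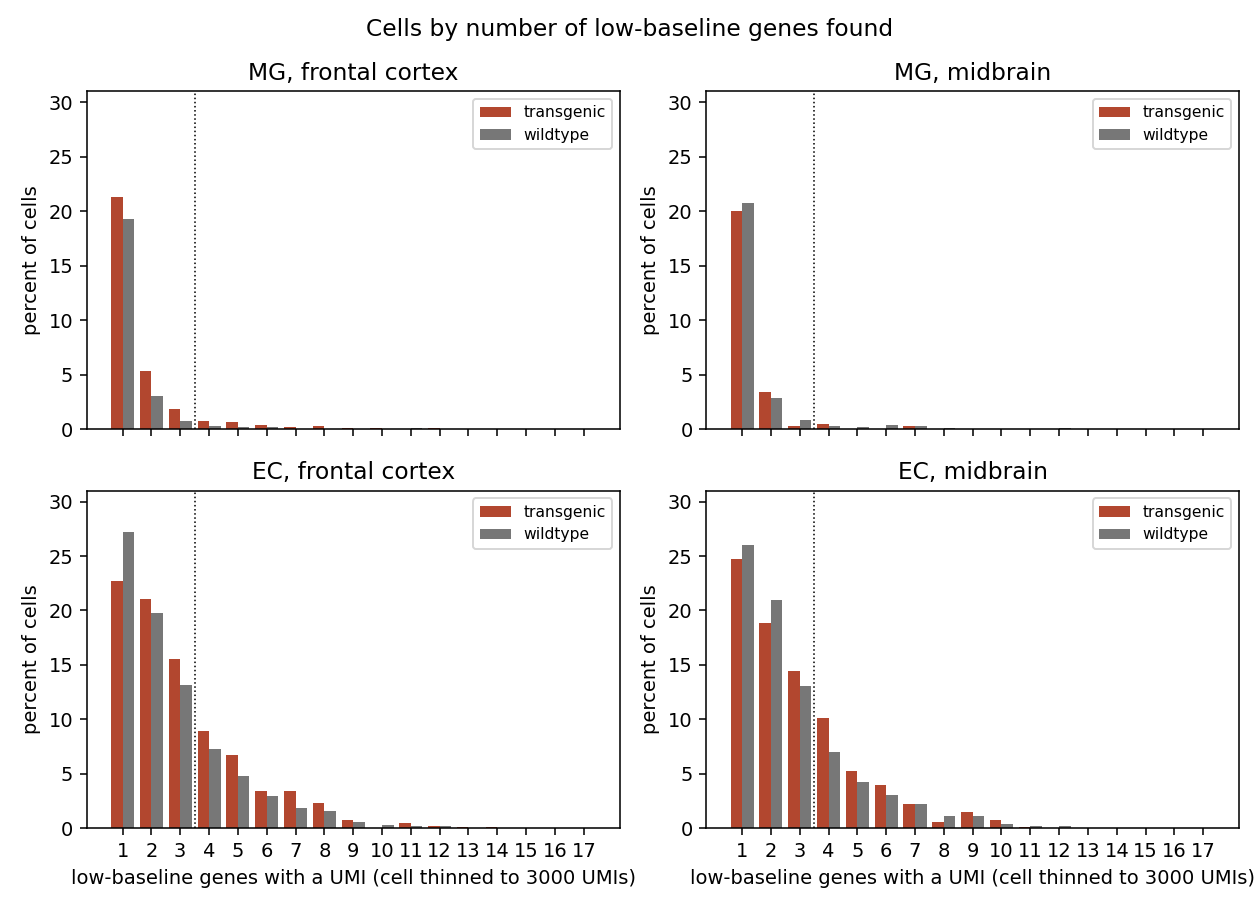
Percent of cells (y axis) by how many of the 17 low-baseline genes had a UMI after thinning to 3000 UMIs (x axis), for MG and EC in each region; cells with none are not drawn and the dotted line marks the cutoff of 4 genes. Frontal cortex MG at or past the cutoff make up 2.56% of transgenic and 0.83% of wildtype cells, and EC 26.7% and 19.8%.

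**Figure D4:**
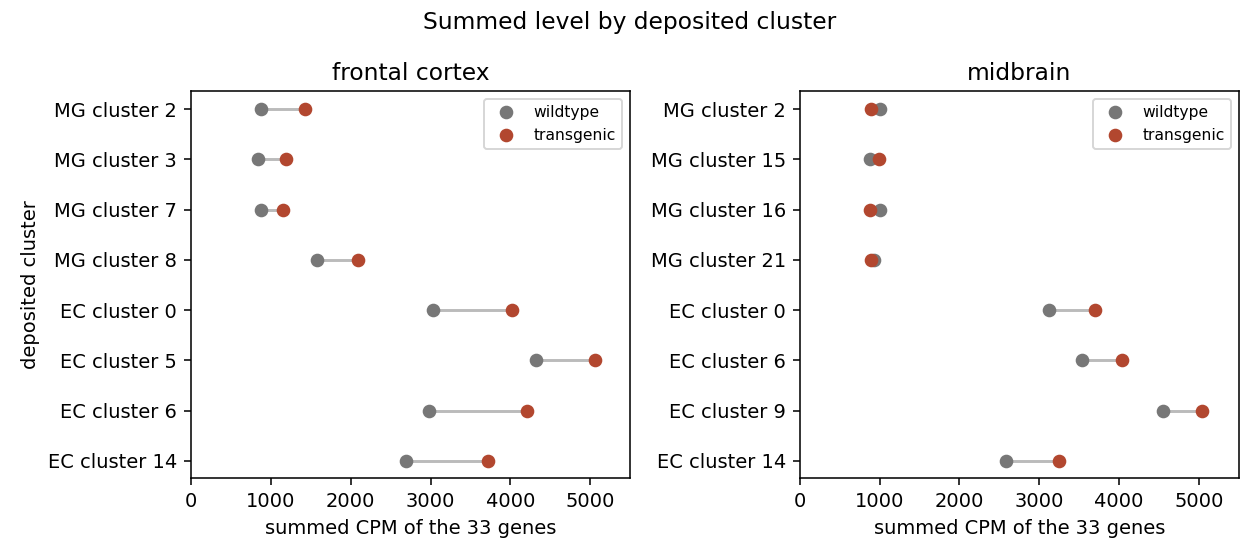
Summed CPM of the 33 genes (x axis) in each deposited microglial and endothelial cluster (y axis), wildtype in grey and transgenic in red, 1 library each. All 4 frontal cortex MG clusters and all EC clusters of both regions lie higher in the transgenic library, while midbrain MG clusters 2, 16 and 21 lie lower.

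Astrocytes carried little of the set. In frontal cortex the genotypes lay in different AC clusters, with 44.9% of transgenic and 73.2% of wildtype cells in cluster 1, 35.6% and 19.2% in cluster 4, and 13.4% and 3.19% in cluster 11. The summed ratio was 0.25 in cluster 1 and 0.86 in cluster 11, and the intervals of clusters 4 and 22 held 0. In frontal cortex AC 8 of the 33 genes passed the filter, of which 2 were called higher (3.87% of 9028 genes) and 0 lower (3.66%). Irf9, the DNA-binding part of the interferon-activated complex, had 24.2 CPM in transgenic and 14.0 CPM in wildtype cells (0.79, 0.44 to 1.14). Lgals3bp had 61.7 and 39.2 CPM (0.66, 0.45 to 0.87), which was 0.12 without cells holding markers of other types. Mitochondrial UMIs made up a median of 9.68% in transgenic and 5.27% in wildtype frontal cortex AC, and the part of this difference was not tested. In midbrain AC 9 genes passed and 0 were called higher (1.02% of 9061 genes) or lower (0.739%). Cells with at least 4 of the 17 low-baseline genes were rare in AC: 2 of 635 and 1 of 867 in frontal cortex, 4 of 1201 and 5 of 2209 in midbrain.

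Macrophages, few in number, held the lowest single-gene ratio of the 6 types in each region, among genes above the filter. In midbrain they also held the highest (1.45), and their summed ratios lay above 0 in both regions. Frontal cortex MAC (85 transgenic and 112 wildtype cells) passed the filter for 27 genes, of which 3 were called higher (7.93% of 7187 genes) and 6 lower (12.9%). Ifi27l2a had 1169 CPM in transgenic and 346 CPM in wildtype cells (1.76, 1.56 to 1.96) and Ifitm3 990 and 634 CPM (0.64, 0.48 to 0.81), while Rsad2 (0.71) had an interval that held 0. Isg15 was lower, at 34.2 against 144 CPM (-2.07, -2.78 to -1.42), as were Ifit2 (-1.53), Ifit3 (-1.46), Trim30a (-1.09), Gbp7 (-0.77, but -0.13 without cells holding markers of other types) and Stat2 (-0.78, interval holding 0). Ifit2 rested on 4 and 10 cells, and its ratio was 1.04 without cells holding markers of other types. Endothelial markers stood at 237 CPM in transgenic and 1033 CPM in wildtype frontal cortex MAC, with 0 of 10 higher, and their part in the lower levels was not tested.

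Midbrain MAC (70 and 157 cells) passed for 28 genes, with 10 called higher (9.81% of 7544 genes) and 3 lower (15.1%). Ifi27l2a again stood higher, at 787 CPM in transgenic and 374 CPM in wildtype cells (1.07, 0.88 to 1.27), and Ifitm3 at 955 and 633 CPM (0.59, 0.43 to 0.76). Ifit3 (1.45), Oasl2 (1.20), Irf7 (0.93), Lgals3bp (0.66) and Isg15 (0.64) also had intervals above 0, whereas those of Dtx3l (0.75), Oas1a (0.71) and Parp9 (0.62) held 0. Each of those 5 lost its call in at least 1 other setting, the lowest values being 0.20 for Oasl2, 0.24 for Irf7, 0.33 for Lgals3bp and 0.14 for Isg15. A single transgenic cell held 24 of the 46 Ifit3 UMIs, and the Ifit3 ratio was -0.08 after thinning. The 3 lower genes were Rsad2 (-2.68, 3 UMIs in transgenic and 40 in wildtype cells), Gbp2 (-1.88) and Gbp3 (-0.72, interval holding 0). One wildtype cell held 74 of the 84 Gbp2 UMIs, and without the top cells Gbp2 stood at 1.06. Endothelial markers were higher here, at 1115 against 730 CPM and in 10 of 10 genes, and smooth muscle markers at 573 against 142 CPM. Their part was not tested. Ifi27l2a and Ifitm3 were called higher in MAC of both regions, but Ifitm3 lost the call in each, with lowest values of 0.41 in frontal cortex and 0.44 in midbrain, and Ifi27l2a kept it in the settings tried.

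Pericytes and smooth muscle cells gave few UMIs per gene. Frontal cortex PC passed for 20 genes, with 8 called higher (8.15% of 8638 genes) and 1 lower (11.1%). Astrocyte markers stood at 866 CPM in transgenic and 199.8 CPM in wildtype frontal cortex PC (10 of 10 higher), erythroid transcripts at 462 and 21.4 CPM, endothelial markers at 713 and 1301 CPM and microglial markers at 335 and 1180 CPM, and their part was not tested. Ifit3 had 27.3 CPM in transgenic and 8.77 CPM in wildtype cells (1.64, 0.41 to 2.97) and Oasl2 39.4 and 18.5 CPM (1.09, 0.18 to 2.02). The other calls, Isg15, Ifit2, Ifih1, Xaf1, Dtx3l and Lgals3bp higher (0.64 to 0.87) and Eif2ak2 lower (-0.62), had intervals that held 0. Midbrain PC passed for 19 genes, with Oasl2 and Eif2ak2 called higher (6.16% of 8916 genes) and Ifit2, Parp9 and Lgals3bp lower (9.97%), all with intervals that held 0. The summed ratio in frontal cortex PC was 0.10 in the 9 transgenic and 21 wildtype cells with fewer than 4 UMIs of other types' markers.

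Frontal cortex SMC passed for 13 genes. Irf9, Eif2ak2 and Gbp2 were called higher (5.88% of 8305 genes) and Ifih1 lower (7.45%), and all 4 intervals held 0. Midbrain SMC passed for 14 genes, with Irf9 and Ifih1 higher (2.52% of 8333 genes) and Irf1 and Parp9 lower (3.52%). Irf1 had 78.2 CPM in transgenic and 128 CPM in wildtype cells (-0.72, -0.98 to -0.46) and Parp9 18.3 and 32.9 CPM (-0.85, -1.40 to -0.33). After thinning neither reached the threshold, with Irf1 at -0.23 and Parp9 at -0.37. Astrocyte markers (126 against 398 CPM) and endothelial markers (449 against 700 CPM) were lower in transgenic midbrain SMC, and their part was not tested.

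**Figure D5:**
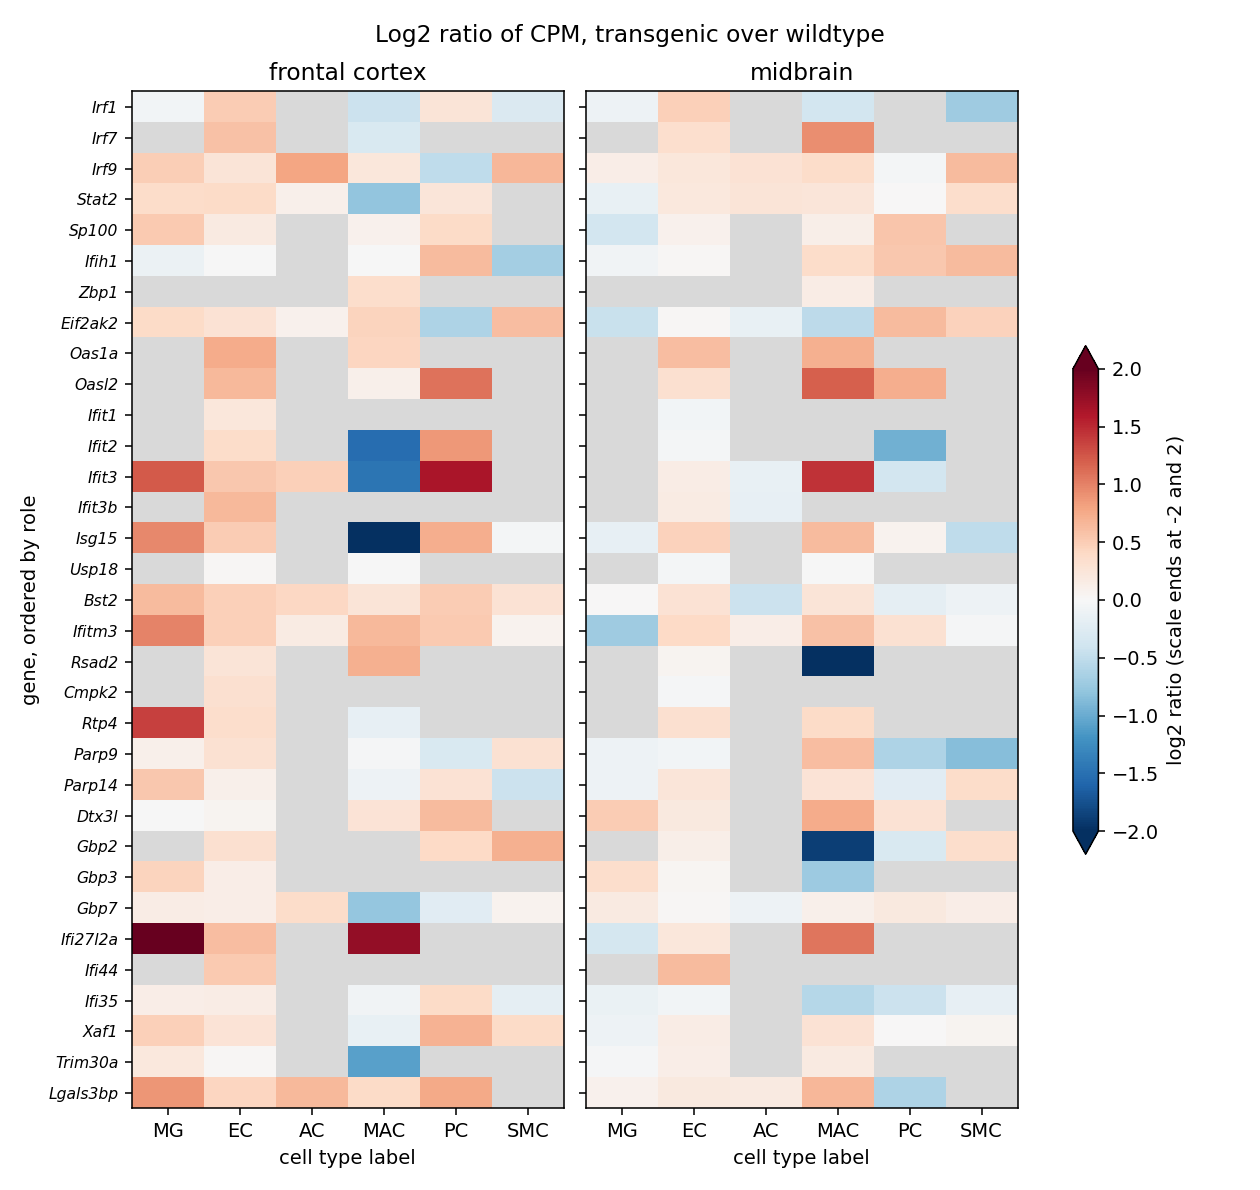
Log2 ratio of CPM, transgenic over wildtype (colour, red higher and blue lower, scale ending at -2 and 2), for each gene (y axis, ordered by role) and cell type label (x axis) in each region; grey cells fell below the filter. Frontal cortex EC are red or near white throughout, MG are red in frontal cortex only, and MAC hold the bluest cells.

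The rest of the pathway was read from 5 further lists. Of 10 interferon ligands, 2 were among the features. Ifnb1 had 9 UMIs in transgenic and 0 in wildtype frontal cortex MG, and 5 and 17 in midbrain MG. Ifng had at most 2 UMIs in any of these 4 libraries of MG. Of 10 receptor and JAK-STAT genes 9 passed the filter in MG and in EC of each region, and 0 were called. Ifnar1 had 60.3 CPM in transgenic and 63.6 CPM in wildtype frontal cortex MG. Of 14 upstream sensing genes above the filter in frontal cortex MG, 0 were called, and in frontal cortex EC 1 of 7 was, the adaptor Myd88 (0.84). Of all genes 1.44% were called higher in those MG and 1.37% in those EC. The 0 of 14 thus lies near the background, while a list of 7 is too small to place 1 call against it. Among feedback genes, Socs1, an inhibitor of Janus kinases, was called lower in frontal cortex MG (11.4 against 18.3 CPM, -0.68), and Trim21 higher in EC of frontal cortex (0.60) and midbrain (0.76). Socs1 and Trim21 were named after their values were seen. In frontal cortex EC, Myd88 (9.42 CPM) and Trim21 (8.19 CPM) were under 10 CPM in wildtype cells. Both passed the filter there only through the transgenic library.

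A list of 72 other interferon-stimulated genes, 69 of them among the features, was read in the same way. In frontal cortex MG 6 of 44 above the filter were called higher and 0 lower, where 1.44% and 1.22% of all genes were, with a median of 0.14 beside -0.04. Ifi204, a DNA sensor, had 27.4 CPM in transgenic and 5.06 CPM in wildtype cells (2.44), the chemokine Ccl12 545 and 155 CPM (1.82), Slfn2 51.4 and 20.9 CPM (1.30), and the chemokine Cxcl10 113 and 69.9 CPM (0.70). In frontal cortex EC 5 of 47 were called higher, where 1.37% of all genes were. Cxcl10 stood at 22.8 and 1.65 CPM (3.79), Slfn2 at 0.69 and the GTPase Iigp1 at 0.67. In frontal cortex, Ifi204 in MG and Cxcl10 in EC were under 10 CPM in wildtype cells. Both passed the filter only through the transgenic library, where they were high. Midbrain MG had 1 of 43 higher, Ccl12 (0.63), and 3 lower, Slfn5 (-1.45), Ifitm2 (-0.95) and Ly6a (-0.93), beside 1.21% and 3.19% of all genes. Midbrain EC had 0 of 46 called in either direction, where 1.12% of all genes were called higher and 1.06% lower, with a median of 0.12.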

How the data were processed

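Per the submitters' processing notes, the tools were Cell Ranger 3.0.0 and Seurat 3.1.5 and the build mm10. Raw UMI counts of genes in cells were deposited as 1 matrix per region. The deposited cell tables give a mitochondrial percent, a cluster number and a type label for each cell, per the file headers. The filters on cells and the treatment of doublets are not given in the sources used here, and cells, clusters and labels were taken as deposited. UMIs were summed over the cells of a label and library and scaled to 1000000 UMIs (CPM). Log2 ratios of 2 libraries carry exact 95% Clopper-Pearson intervals that condition on the total of the pair. As each group was 1 library, no test was made. A ratio against 0 UMIs would use a floor of 3 UMIs. Depth per library was 30712684 to 56588233 UMIs.

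All 33 members may be named, every called member is named, and up to 4 called genes per pathway list, region and type. The members, lists and rules were chosen with earlier results of these data known, so they are not independent evidence. The calculations were tested on simulated data. Alternatives covered scaling (edgeR 4.0.16 TMM factors, DESeq2 1.42.0 size factors), cells, clusters, filters and thinning. Promoters are from RefSeq and gene positions from GENCODE. Python 3.11.15 and R 4.3.3 were used. The values of 1 pathway gene are not reported here.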

Additional observations from a re-analysis of the deposited data

Results flagged for a closer look

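In microglia the transgenic over wildtype ratio had opposite directions in the 2 regions, and the difference between regions was not tested. The frontal cortex log2 ratio minus the midbrain ratio was 0.65 for the summed level of the 33 genes, 2.35 for Ifi27l2a, 2.32 for Ifit3, 2.32 for Rtp4 and 1.71 for Ifitm3. In macrophages the opposite held for Ifit3 (-2.91) and Isg15 (-2.71), which were lower in transgenic frontal cortex and higher in transgenic midbrain. Each of these differences compares 1 library per group. In midbrain MG with no endothelial marker UMI the summed ratio was -0.03 and its interval held 0 (-0.14 to 0.08), and in cluster 15 it was 0.18. Under other settings the Ifit3 ratio fell as low as -0.11 in frontal cortex MG and -0.08 in midbrain MAC.

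Cells with labels outside the 6 compared types also differed, and these labels are printed as deposited. In frontal cortex, cells labelled imNeur (78 transgenic and 103 wildtype) held 860 against 120 CPM of the 33 genes (log2 ratio 2.84), and 3 transgenic cells held at least 50% of the UMIs. Cells labelled EPC in frontal cortex, 16 and 14 in number, had a ratio of 1.70, with 1 transgenic cell holding 32.3% of the UMIs. In midbrain, cells labelled imNeur had a ratio of 1.34, which was 0.43 without the top cell of each library. Those labelled Hb_EC (1.06), OLG (0.98) and mNeur (0.72) were also higher in the transgenic library, on 14, 12 and 39 transgenic cells.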

How the results depend on the processing

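No paired analysis was possible because each group was 1 library. Of 117 summed values under other settings, 77 stayed within the main interval, 38 moved and 2 reversed. The summed log2 ratio of frontal cortex MG (0.55) was 0.59 without mitochondrial and ribosomal genes in the total, 0.52 with per-cell means and 0.52 thinned. It was 0.51 without cells holding markers of other types and 0.50 with clusters weighted alike. Without the 4 genes set aside above, called abundant below though not so in every type, it was 0.38. In cells with no endothelial marker UMI it was 0.39. For EC (0.36), TMM gave 0.31, DESeq2 factors 0.30, per-cell means 0.32, cells without other markers 0.40, no top cells 0.33, clusters alike 0.39 and no abundant genes 0.28. For AC (0.29), per-cell means gave 0.43, thinning 0.46, cells under 10% mitochondrial UMIs 0.38 and cells without other markers 0.48. Per-cell means gave 0.24 in MAC and 0.18 in SMC, thinning 0.25 in SMC, and cells without other markers 0.10 in PC. The MAC ratio reversed to -0.44 without the abundant genes. In midbrain, cells with no endothelial marker UMI gave -0.0324 in MG. For EC (0.24), cells without other markers gave 0.16, clusters alike 0.22 and no abundant genes 0.15. For AC (0.02), per-cell means gave 0.24, thinning 0.13, the mitochondrial limit -0.046, cells without other markers 0.46, no top cells 0.0857 and clusters alike 0.47. For MAC (0.44), thinning gave 0.33, cells without other markers 0.86, no top cells 0.35 and no abundant genes 0.20, the last giving 0.0302 in PC and -0.24 in SMC. SMC reversed to 0.0795 with clusters alike.

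Counts of genes called moved as well. In frontal cortex MG, 15 in place of 7 were higher with no filter, and 1 in place of 0 lower after thinning and 1 without other markers. In EC, 9 (without other markers) and 7 (clusters alike) in place of 4 were higher, and 2 were lower without other markers. In AC, 4 (thinned), 1 (clusters alike) and 8 (no filter) in place of 2 were higher, and 6 lower with no filter. In midbrain MG, 1 (without other markers), 1 (clusters alike) and 2 (no filter) were higher in place of 0. In place of 1 lower there were 2 (mitochondrial and ribosomal genes left out), 0 (per-cell means), 3 (thinned), 4 (without other markers) and 7 (no filter). In midbrain EC, 0 (per-cell means), 1 (without other markers), 1 (clusters alike) and 1 (at least 20 CPM) in place of 2 were higher, and 3 lower without other markers. In midbrain AC, 1 (per-cell means), 2 (without other markers), 4 (clusters alike) and 3 (no filter) were higher in place of 0, and 1 (thinned) and 4 (no filter) lower.

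Of 500 values for single called genes, 415 kept their call, 70 lost it and 15 reversed. Without cells holding other markers, which kept few and shallow cells, frontal cortex Ifit3 in MG was -0.11, Ifit2 in MAC 1.04, Rsad2 in MAC -0.54 and Eif2ak2 in PC 1.99. In midbrain that setting gave 0.49 for Rsad2, 0.0711 for Gbp2 and 0.49 for Gbp3 in MAC, 0.68 for Ifit2 in PC and -0.46 for Ifih1 in SMC. Thinning gave -0.31 for Gbp2 in frontal cortex SMC, and in midbrain MAC -0.0809 for Ifit3, 0.16 for Rsad2 and 0.0566 for Gbp3. Per-cell means gave 0.14 for Gbp3 and the loss of the top cells 1.06 for Gbp2 there. The cause was not tested. All 14 values for the ratio of shares of cells rich in these genes kept their direction. Intervals came to hold 0 for midbrain EC at 6 genes (0.10) and at 1500 UMIs (0.18) and frontal cortex EC at 1500 UMIs (0.34). The interval of frontal cortex MG with no endothelial marker UMI (0.71) held 0 as well. At 1500 UMIs and 6 genes together, a setting not among the 14, the midbrain EC ratio turned to -0.15. The cell subset without endothelial markers was chosen after seeing the data. With 1 library per group, no value separates genotype from library.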
